A study of Homo sapiens with 4 samples.

Results

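Toll-like receptors are the innate immune receptors through which monocytes and other myeloid cells recognise conserved parts of microbes. At the cell surface TLR4 detects bacterial lipopolysaccharide together with LY96 (also called MD-2), to which CD14 passes the ligand. TLR2 detects lipopeptides when it is paired with TLR1 or TLR6, and TLR5 detects flagellin. TLR7 and TLR8 sense single-stranded RNA in endosomes, and MYD88 is the adaptor that most of these receptors use to activate IRAK kinases and NF-kB. The expression of these genes was examined in MV4-11 cells after knockdown of ANP32B. The 10 genes were set as a named list, namely TLR1, TLR2, TLR4, TLR5, TLR6, TLR7, TLR8, CD14, LY96 and MYD88. Among the 18885 genes in the table of expression values, 7 of the 10 had a row. CD14, TLR7 and TLR8 had none and were not analysed here.

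RNA-seq was performed on MV4-11, an established human AML cell line of myelomonocytic type that carries an MLL-AF4 fusion. The control group (sh-NC) and the ANP32B knockdown group (sh-ANP32B) held 2 libraries each. The knockdown cells carried an shRNA against ANP32B, delivered by lentivirus with puromycin selection, and the mark S3 on their columns points to 1 of the hairpins of the study. The sample labels describe the control cells as untreated and without shRNA, whereas the paper names a control hairpin. An effect of transduction and selection therefore cannot be told apart from that of ANP32B loss. Nothing in the labels says that libraries of a group came from separate cultures, so p-values measure only the spread between these libraries, which may be technical.

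Expression was deposited as TPM, a unit that corrects each gene for its length and each library for its size, which lets levels be compared between genes. The libraries summed to between 997271 and 998546 TPM. Read numbers cannot be had from TPM, so sequencing depth and counting error are unknown. ANP32B itself fell to 54.1 and 49.3 TPM in sh-ANP32B from 358 and 364 TPM in sh-NC. The change of a gene is given as log2FC, the difference of the group means of log2(TPM + 1), with p adjusted over the 16937 genes that reached 1 TPM in 2 or more libraries (limma). A gene was called changed at an adjusted p below 0.05 and a log2FC beyond 0.5, the fold limit. By this rule 17.9% of all genes tested were higher in sh-ANP32B and 10.1% were lower. Over all genes the median log2FC was 0.08 as deposited and -0.04 after quantile normalization. For 1 gene alone, 2 libraries per group allow no two-sided p under 0.33 in an exact permutation test.

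Of the myeloid marker genes, CD33, SPI1, CD4 and FUT4 were well expressed in every library, whereas MPO had no row. SPI1, the myeloid transcription factor PU.1, had 250.3 and 257 TPM in sh-NC and 361 and 361 TPM in sh-ANP32B. Its log2FC of 0.51 was just past the fold limit. It lay inside the limit with median-of-ratios scaling (0.41) and without sh-NC replicate 1 (0.488). ITGAM, an integrin of mature myeloid cells, rose with a log2FC of 2.58 (adjusted p = 9.69e-05). Over the 8 myeloid markers, 7 had a row, 3 were called higher and none was called lower. Among all genes tested 17.9% were called higher and 10.1% lower, and so small a count is not read as a shift of the list. FUT4, which makes the CD15 epitope, had 100.2 and 109.7 TPM in sh-NC and 81.8 and 84.1 TPM in sh-ANP32B (log2FC -0.33, adjusted p = 0.00694), inside the fold limit. FLT3, the receptor kinase, had a log2FC of -0.15 that did not pass the test (adjusted p = 0.383). CSF1R had 0.960 and 1.39 TPM in sh-NC and 2.36 and 2.04 TPM in sh-ANP32B, and did not pass it either (log2FC 0.56, adjusted p = 0.0828). The summed level of the list, most of it from CD4 and SPI1, was between 795 and 814 TPM in sh-NC and between 1166 and 1168 TPM in sh-ANP32B. Of 6 T cell markers CD2 alone had a row, at 0.521 and 0.442 TPM in sh-NC and 3.62 and 3.63 TPM in sh-ANP32B. None of the erythroid, fibroblast or epithelial markers had a row. The part of these shifts in the results below was not tested, and in bulk RNA fewer cells of a type and less RNA per cell cannot be told apart.

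In sh-NC the order was MYD88, TLR4, TLR2 and LY96, with means of 60.2, 25.3, 11.3 and 1.68 TPM, and each was separated from the next by more than the spread between the libraries. TLR6, TLR1 and TLR5 followed at means of 0.216, 0.181 and 0.163 TPM, and neighbours among these 3 overlapped. For scale, 84.1% of all rows had a lower sh-NC mean than MYD88, 67.5% a lower one than TLR4, and 1.4% a lower one than TLR6. In sh-ANP32B the first 4 genes kept their order, at 72.4, 36.5, 19.6 and 4.83 TPM. TLR1 then came before TLR6 and TLR5, at 2.13, 1.31 and 0.978 TPM, and no neighbours overlapped.

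**Figure D1:**
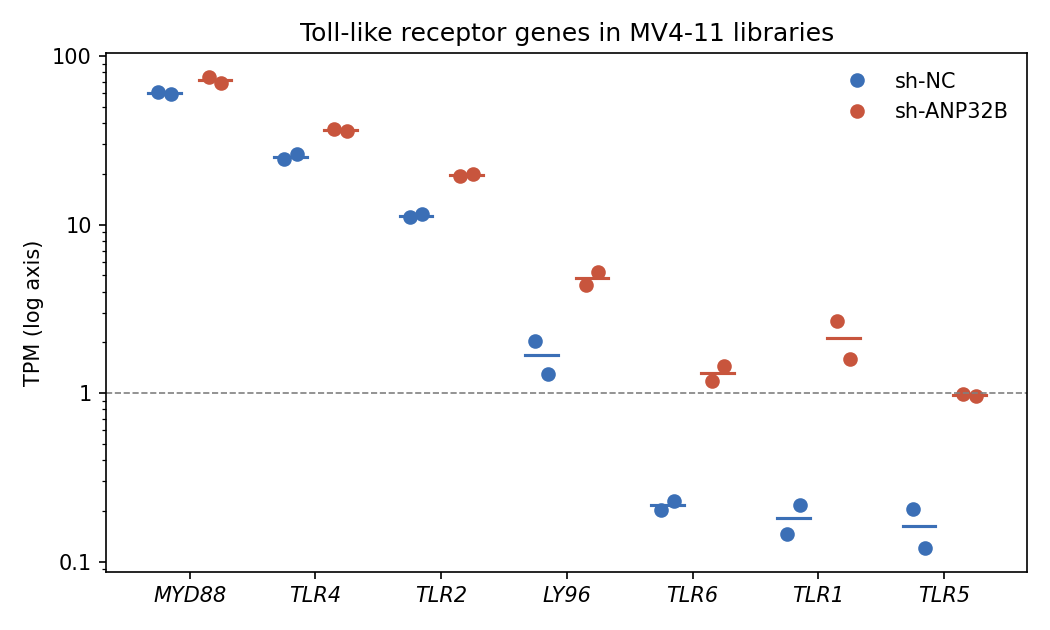
TPM of the 7 genes with a row, on a log axis; points are libraries (2 per group), short bars the group means and the dashed line 1 TPM. Every gene lies higher in both sh-ANP32B libraries than in both sh-NC libraries, and TLR6, TLR1 and TLR5 lie under 1 TPM in sh-NC. TLR6, TLR1 and TLR5 have a row only through their level in sh-ANP32B, so their order was fixed by the choice of rows.

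For each of the 7 genes, both sh-ANP32B libraries lay above both sh-NC libraries. This was also so for 41.9% of all rows of the table. The lowest mean of a row over the 4 libraries is 0.50 TPM, so TLR1, TLR5 and TLR6, with at most 0.230 TPM in sh-NC, have a row only through their level in sh-ANP32B. Their order was thus fixed by the choice of rows, and nothing is read from the count of 7. Of the 7, 6 could be tested and 5 were called higher, against 17.9% of all genes tested, and none was called lower. TLR1 and TLR6 entered the test only through their level in sh-ANP32B. Among the 799 genes under 1 TPM in both sh-NC libraries that entered in this way, 59.8% were called higher, so for TLR1 and TLR6 the call itself says little. Among genes with at least 1 TPM in every library, 17.0% were called higher. TLR2, TLR4 and LY96 belong to that group and were called higher in it, and MYD88 belongs to it and was not.

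**Figure D2:**
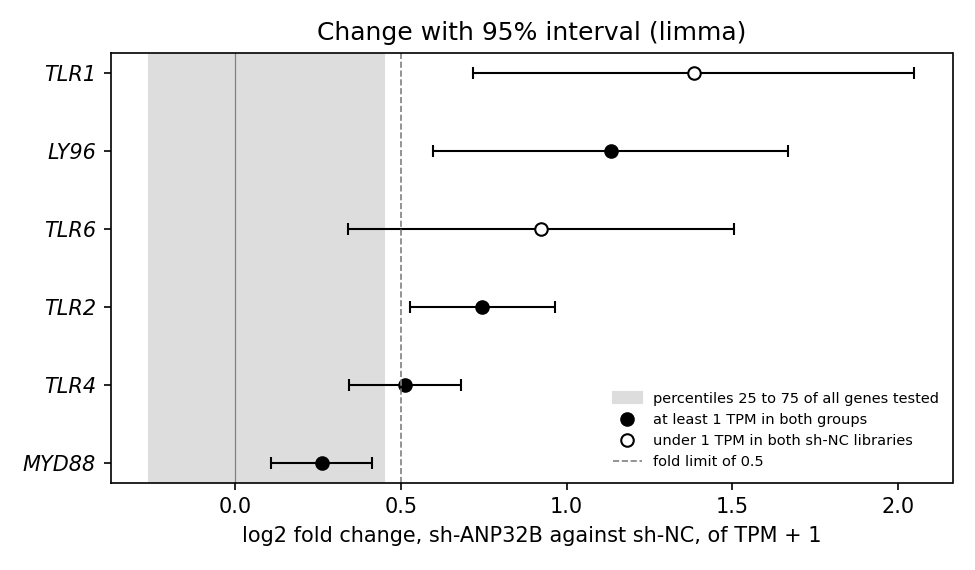
Log2FC of TPM + 1 with its 95% interval from limma for the 6 genes tested; open points mark genes under 1 TPM in both sh-NC libraries, and the grey band spans percentiles 25 to 75 of all genes tested (-0.26 to 0.45). TLR4 lies at 0.51, just past the fold limit of 0.5, and MYD88 at 0.26 lies inside it.

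TLR4, the lipopolysaccharide receptor, is on chromosome 9 (hg38, plus strand, 117704175 to 117724735). Its level was 24.5 and 26.1 TPM in sh-NC and 36.9 and 36.1 TPM in sh-ANP32B, a ratio of the means of 1.44. The knockdown libraries differed from each other by less than the control libraries did, and the groups were well apart. The log2FC was 0.51 ± 0.068 (SE), with a 95% interval of 0.34 to 0.68 (adjusted p = 0.00254). The adjusted p stayed below 0.05 in all 11 alternative fits, at most 0.0158, but the fold limit did not hold in every one. The log2FC was 0.42 with median-of-ratios scaling, 0.49 after quantile normalization, 0.47 without sh-NC replicate 1 and 0.497 without sh-ANP32B replicate 1. TLR4 shares 678 exonic bases with ENSG00000285082, a gene on the same strand that had no row.

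LY96, the protein that binds lipopolysaccharide within the TLR4 complex, lies on chromosome 8 from 73991392 to 74029079. It had 2.05 and 1.31 TPM in sh-NC and 4.40 and 5.26 TPM in sh-ANP32B. The control libraries were unequal, yet the lower knockdown value was above the higher control value. The ratio of the means was 2.88 and the log2FC was 1.13 ± 0.215 (SE), with a 95% interval of 0.60 to 1.67 (adjusted p = 0.00899). LY96 was called in all 11 alternative fits, with an adjusted p of up to 0.0446 without sh-ANP32B replicate 2. No stretch of 50 bases of its transcript was shared with another gene in the annotation.

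TLR2, which recognises bacterial lipopeptides, lies on the plus strand of chromosome 4 from 153684070 to 153706260. It had 11.1 and 11.5 TPM in sh-NC and 19.3 and 20.0 TPM in sh-ANP32B. Replicates were close in both groups and the groups did not overlap. The ratio of the means was 1.74 and the log2FC was 0.74 ± 0.088 (SE), with a 95% interval of 0.53 to 0.96 (adjusted p = 0.00167). The call held in all 11 alternative fits, in which the log2FC ranged from 0.65 to 0.79. Of the stretches of 50 bases in the TLR2 transcript, 0.959% also occur in ENSG00000250771 and 0.959% in ENSG00000290441.

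TLR1 and TLR6 encode the partners of TLR2 and overlap on the minus strand of chromosome 4, TLR1 from 38790677 to 38856817 and TLR6 from 38822897 to 38856817. At least 1 annotated transcript of each begins at 38856817. They share 57 exonic bases, all within the canonical TLR6 transcript and 0 within the canonical TLR1 transcript, which begins elsewhere. The 250 bases before this shared start are shown because transcripts of both genes begin there, with the ETS core described below in capitals (GRCh38.p14, chr4:38856818-38857067, minus strand):
upstream of the shared start: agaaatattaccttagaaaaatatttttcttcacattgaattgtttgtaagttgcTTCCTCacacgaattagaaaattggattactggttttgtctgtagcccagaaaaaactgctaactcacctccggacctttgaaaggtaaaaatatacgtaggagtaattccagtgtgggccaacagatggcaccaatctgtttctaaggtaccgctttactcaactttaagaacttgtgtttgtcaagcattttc

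TLR1 had 0.146 and 0.216 TPM in sh-NC and 2.67 and 1.58 TPM in sh-ANP32B. Both control values were near the lowest levels in the table, and the knockdown libraries differed from each other. The log2FC was 1.38 ± 0.267 (SE), with a 95% interval of 0.72 to 2.05 (adjusted p = 0.00955). TLR6 had 0.203 and 0.230 TPM in sh-NC and 1.18 and 1.44 TPM in sh-ANP32B, with a log2FC of 0.92 ± 0.234 (SE), with a 95% interval of 0.34 to 1.51 (adjusted p = 0.0240). The pseudocount compresses changes at such levels. The ratio of the mean TPM was 11.8 for TLR1 and 6.05 for TLR6, and with a pseudocount of 0.1 the log2FC values were 2.95 and 2.15. The TLR6 call was lost after quantile normalization (adjusted p = 0.0867), without sh-NC replicate 1 (log2FC 0.91) and without sh-NC replicate 2 (log2FC 0.94). TLR1 was called in all 8 alternative fits that tested it. Both genes have a row and entered the test only through sh-ANP32B, so nothing is read from how often they were called. Without either sh-ANP32B library both genes fell below the filter and could not be tested. Of the stretches of 50 bases in the TLR1 transcript, 8.49% also occur in TLR6, and 3.70% of those of TLR6 occur in TLR1. Reads there could have been assigned to either gene. In all, 97 genes share any such stretch with TLR6, so ambiguity at TLR6 is not limited to TLR1.

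TLR5, the flagellin receptor, lies on chromosome 1 from 223109404 to 223143248. It had 0.206 and 0.120 TPM in sh-NC and 0.990 and 0.965 TPM in sh-ANP32B. The knockdown values were near 1 TPM and close to each other, but no library reached the filter and TLR5 was not tested in the main comparison. With no filter on low genes its log2FC was 0.77 ± 0.228 (SE, adjusted p = 0.0430). TLR5 has a row only through its level in sh-ANP32B. The direction of this change was thus fixed by the choice of rows, and nothing is read from its adjusted p.

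MYD88, the shared adaptor, lies on the plus strand of chromosome 3 from 38138552 to 38143024. It had 60.8 and 59.5 TPM in sh-NC and 75.6 and 69.2 TPM in sh-ANP32B, a ratio of the means of 1.20. The groups did not overlap, although the knockdown libraries differed by more than the control libraries did. Its log2FC of 0.26 ± 0.061 (SE), with a 95% interval of 0.11 to 0.41 (adjusted p = 0.0185) lay inside the fold limit. An adjusted p below 0.05 with a positive change was found for 26.0% of all genes tested. In 5 of the 11 alternative fits its adjusted p was above 0.05, up to 0.0881 with median-of-ratios scaling, where the log2FC was 0.17.

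Because TLR2 pairs with TLR1 or TLR6, and TLR4 with LY96, the ratio of partner transcripts was compared within each library. The ratio of TLR1 to TLR2 was 0.0131 and 0.0188 in sh-NC, against 0.138 and 0.0793 with knockdown. That of TLR6 to TLR2 was 0.0182 and 0.0200 in sh-NC, against 0.0610 and 0.0722 with knockdown. TLR2 thus remained more abundant than either partner in every library, and the ratios were higher in both knockdown libraries. The ratio of LY96 to TLR4 was 0.0835 and 0.0501 in sh-NC, against 0.119 and 0.146 with knockdown. On the log2 scale the ratios differed between the groups by 2.74 for TLR1 to TLR2, 1.80 for TLR6 to TLR2 and 1.03 for LY96 to TLR4. The groups did not overlap, and these differences were not tested. How often other gene pairs separate the groups in this way was not counted. TLR1 and TLR6 have a row only through their level in sh-ANP32B. The direction of their ratios to TLR2 was thus largely set by the choice of rows, and nothing is read from it. Scaling of whole libraries does not enter these ratios. The 5 receptors with a row summed to 36.2 and 38.1 TPM in sh-NC and to 61.0 and 60.0 TPM in sh-ANP32B. TLR4 made up 67.7% and 68.4% of this sum in the sh-NC libraries, against 60.4% and 60.1% with knockdown. It thus remained the most abundant of these receptor transcripts. The TLR2 share was 30.8% and 30.1% in sh-NC, against 31.6% and 33.3% with knockdown. The remainder is TLR1, TLR5 and TLR6, so the shift of the TLR4 share depends in large part on genes that have a row only through sh-ANP32B.

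**Figure D3:**
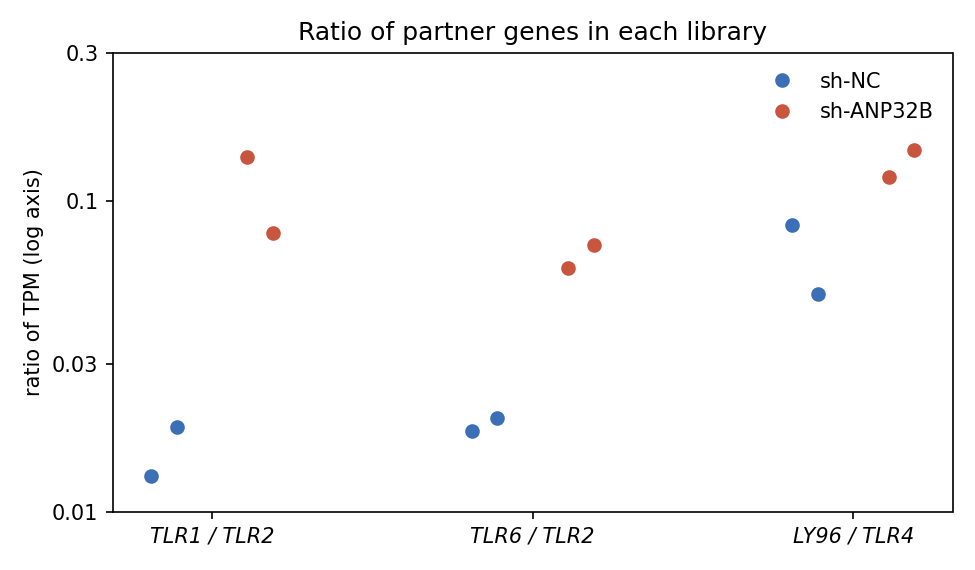
Ratio of TPM between partner genes in each library, on a log axis, with 2 libraries per group. All 3 ratios are higher in both sh-ANP32B libraries than in both sh-NC libraries. The share of other gene pairs that separate the groups in this way was not counted. TLR1 and TLR6 have a row only through their level in sh-ANP32B, so the direction of their ratios was largely set by the choice of rows.

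Promoter sequences of RefSeq, from 250 bases before to 50 after the start, were found for TLR2, TLR4, TLR5, TLR6 and MYD88. They were searched on both strands for the ETS core GAGGAA, which PU.1 and other ETS factors can bind, for TATAAA, for the C/EBP core TTGCNNAA, for the E-box CACGTG and for the kappaB motif. For each of these genes only the first listed RefSeq start was searched. The promoter at that start held 4 matches to GAGGAA for TLR4, 1 each for TLR6 and MYD88, and none for TLR2 and TLR5. For TLR4 and MYD88 the RefSeq start lies inside the annotated gene span, which begins at 117704175 for TLR4 and at 38138552 for MYD88. The GAGGAA matches of TLR4 and MYD88 lie before the RefSeq start but within that gene span. A match was present in 27.9% of the 35116 promoters of the same length. CACGTG was found in TLR2 alone, and in 7.26% of all promoters. TATAAA, TTGCNNAA and the kappaB motif, present in 11.5%, 10.5% and 11.3% of all promoters, were found in none of the 5. The matches are a description of the sequence and not sites of binding, and a missing match says only that these letters are not in the window. The stretches around the GAGGAA matches are shown for TLR4 and MYD88, the most abundant of the genes with a match, with the 6 matching bases in capitals (plus strand of GRCh38.p14, where TTCCTC is the reverse complement):
TLR4 chr9:117704167-117704196: aagccaactagcTTCCTCttgctgtttctt
TLR4 chr9:117704220-117704249: tcttcttctaacTTCCTCtcctgtgacaaa
TLR4 chr9:117704292-117704321: tgccgctttcacTTCCTCtcaccctttagc
TLR4 chr9:117704351-117704380: gtggggcggctcGAGGAAgagaagacacca
MYD88 chr3:38138631-38138660: ccgcaggagaaaGAGGAAgcgctggcagac

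The nearest genes with a row were chosen by position alone. FAM114A1, 10860 bases from the common start of TLR1 and TLR6, had 3.2 and 2.80 TPM in sh-NC and 8.82 and 8.60 TPM in sh-ANP32B (log2FC 1.28, adjusted p = 0.00139). RNF175, 3900 bases from TLR2, had 0.535 and 0.531 TPM against 2.04 and 2.40 TPM (log2FC 1.07, adjusted p = 0.0104). ACAA1, a peroxisomal thiolase gene 1310 bases from MYD88, had 72.9 and 79.3 TPM against 129 and 125 TPM (log2FC 0.73, adjusted p = 4.41e-04). On the other side of MYD88, OXSR1 had a log2FC of -0.20 (adjusted p = 0.0295), inside the fold limit. WDR45P1, on the other side of TLR2, was called higher (log2FC 1.19, adjusted p = 0.0128), and ASTN2, 289105 bases from TLR4, was called lower (log2FC -1.20, adjusted p = 0.0117). RNF175 and WDR45P1 entered the test through sh-ANP32B only and ASTN2 through sh-NC only, the group in which each is high. TMEM70 and GDAP1 beside LY96, TPT1P9 beside TLR4 and DISP1 beside TLR5 did not pass the test, and KLF3 beside TLR1 and CAPN2 beside TLR5 stayed inside the fold limit.

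Of the other Toll-like receptors, TLR3 and TLR10 had no row. TLR9, the endosomal receptor of unmethylated DNA, had 3.34 and 2.97 TPM in sh-NC and 2.64 and 2.53 TPM in sh-ANP32B. Both knockdown values were below the control values, but the log2FC of -0.21 did not pass the test (adjusted p = 0.359). The TLR1 profile, as the receptor with the highest log2FC and a mean of at least 1 TPM, was compared with all genes tested. By Euclidean distance of centred log2(TPM + 1) over the 4 libraries, the closest were CASS4, EOLA1-DT and FAM200A, at distances of 0.0841, 0.0953 and 0.112. CASS4, an adaptor of the Cas family, had 0.213 and 0.362 TPM in sh-NC and 2.79 and 1.76 TPM in sh-ANP32B. CASS4 and FAM200A, like TLR1, were under 1 TPM in both sh-NC libraries and entered the test through sh-ANP32B only. As TLR1 was picked by its log2FC, genes close to it share its step between the groups, and nothing more is read from them.

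The pathway around the receptors was described by 8 lists of 93 genes, of which 74 had a row and 73 were tested. In these lists 26 genes were called higher and 3 lower. Their counts are to be read against 17.9% higher and 10.1% lower among all genes tested. Of the 73, 6 entered the test through sh-ANP32B only, and 59.8% of all such genes were called higher. With at least 1 TPM in every library 18 pathway genes were called higher, against 17.0% of all genes tested in that way. Of the 14 accessory and trafficking proteins, 13 were tested, 4 were called higher and none lower, with a median log2FC of 0.26. CD36, a scavenger receptor that assists TLR2, had 0.556 and 0.279 TPM in sh-NC and 4.42 and 3.78 TPM in sh-ANP32B (log2FC 1.85, adjusted p = 0.00164), and it entered the test through sh-ANP32B only. SLC15A3, a lysosomal transporter of bacterial peptides, had 7.48 and 7.62 TPM against 28.8 and 27.2 TPM (log2FC 1.76, adjusted p = 1.62e-04). LY86 (MD-1), the counterpart of LY96 that binds CD180, was named after its values were seen and had 31.1 and 34.7 TPM against 80.4 and 88.9 TPM (log2FC 1.34, adjusted p = 2.30e-04). UNC93B1, the chaperone that carries endosomal receptors from the endoplasmic reticulum, had 164 and 164 TPM against 161 and 171 TPM, and the groups overlapped. HSP90B1, the chaperone gp96 on which Toll-like receptors depend for folding, had a log2FC of -0.34 (adjusted p = 0.00260), inside the fold limit.

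Adaptors and kinases had a median log2FC of 0.08, equal to that of all genes. Of the 21, 19 were tested, 3 were called higher and 2 lower. IRAK2, a kinase of the MYD88 complex, had 6.33 and 6.75 TPM in sh-NC and 13.2 and 12.8 TPM in sh-ANP32B (log2FC 0.89, adjusted p = 0.00193). IKBKE, a kinase of the interferon arm, had 18.2 and 17.8 TPM against 30.0 and 28.2 TPM (log2FC 0.67, adjusted p = 0.00146). The most abundant kinase, IRAK1, had a log2FC of 0.04 that did not pass the test (adjusted p = 0.504). TAB2, which links TRAF6 to the kinase TAK1, fell from 51.0 and 46.5 TPM to 32.5 and 31.9 TPM (log2FC -0.58, adjusted p = 0.00166). TRAF3, a ubiquitin ligase of the interferon arm, had a log2FC of -0.50 (adjusted p = 0.00322), and -0.49 without sh-NC replicate 2 or without sh-ANP32B replicate 1, which lies inside the fold limit.

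Among 13 genes of proteins that restrain the pathway, 12 were tested, 6 were called higher and 1 lower, with a median of 0.55. CYLD, a deubiquitinase, had 13.6 and 12.3 TPM in sh-NC and 24.8 and 28.3 TPM in sh-ANP32B (log2FC 0.98, adjusted p = 0.00115). PTPN6, the phosphatase SHP-1, had 124 and 133 TPM against 201 and 207 TPM (log2FC 0.66, adjusted p = 3.98e-04). SARM1, a TIR domain protein, had a log2FC of 0.86 (adjusted p = 0.0332), but its call was lost in 4 alternative fits, among them those without sh-NC replicate 1 (adjusted p = 0.118), without sh-ANP32B replicate 1 (adjusted p = 0.118) and without sh-ANP32B replicate 2 (adjusted p = 0.0909). TNIP1, a partner of the deubiquitinase A20, fell from 64.0 and 68.8 TPM to 43.1 and 42.4 TPM (log2FC -0.62, adjusted p = 8.14e-04). INPP5D, the phosphatase SHIP1, did not pass the test (adjusted p = 0.466).

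All 10 transcription factors were tested, 3 were called higher and none lower, with a median of 0.28. FOS, a subunit of AP-1, had 27.2 and 23.6 TPM in sh-NC and 59.7 and 58.6 TPM in sh-ANP32B (log2FC 1.19, adjusted p = 3.11e-04). IRF7, which acts below the endosomal receptors, had 5.45 and 4.99 TPM against 11.3 and 12.7 TPM (log2FC 1.06, adjusted p = 0.00177). IRF8 and IRF3, the most abundant of the list, overlapped between the groups. IRF8 had 291 and 315 TPM in sh-NC and 266 and 364 TPM in sh-ANP32B.

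Genes that Toll-like receptor signalling induces in monocytes were described in the same way. Of 13, TNF, IL6, IL10, CCL4, PTGS2 and CD80 had no row, 6 were tested, 5 were called higher and none lower, with a median of 1.43. Of these 6, CXCL2, CD86 and IL1B were under 1 TPM in both sh-NC libraries and entered the test through sh-ANP32B only, and 59.8% of all such genes were called higher. The median of 1.43 rests on them, and of the 3 others, CXCL8, ICAM1 and NFKBIA, the middle value was 0.79. CXCL8, the neutrophil chemokine interleukin-8, had 3.45 and 3.33 TPM in sh-NC and 42.2 and 47.4 TPM in sh-ANP32B (log2FC 3.38, adjusted p = 6.52e-05). IL1B had 0.0408 and 0.226 TPM against 5.02 and 5.06 TPM (log2FC 2.42, adjusted p = 5.70e-04). ICAM1, an adhesion molecule, had 20.4 and 23.0 TPM against 37.9 and 38.5 TPM (log2FC 0.79, adjusted p = 0.00106). NFKBIA, the inhibitor of NF-kB that is itself an NF-kB target, had 37.1 and 35.1 TPM against 38.5 and 40.2 TPM and did not pass the test (adjusted p = 0.173).

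**Figure D4:**
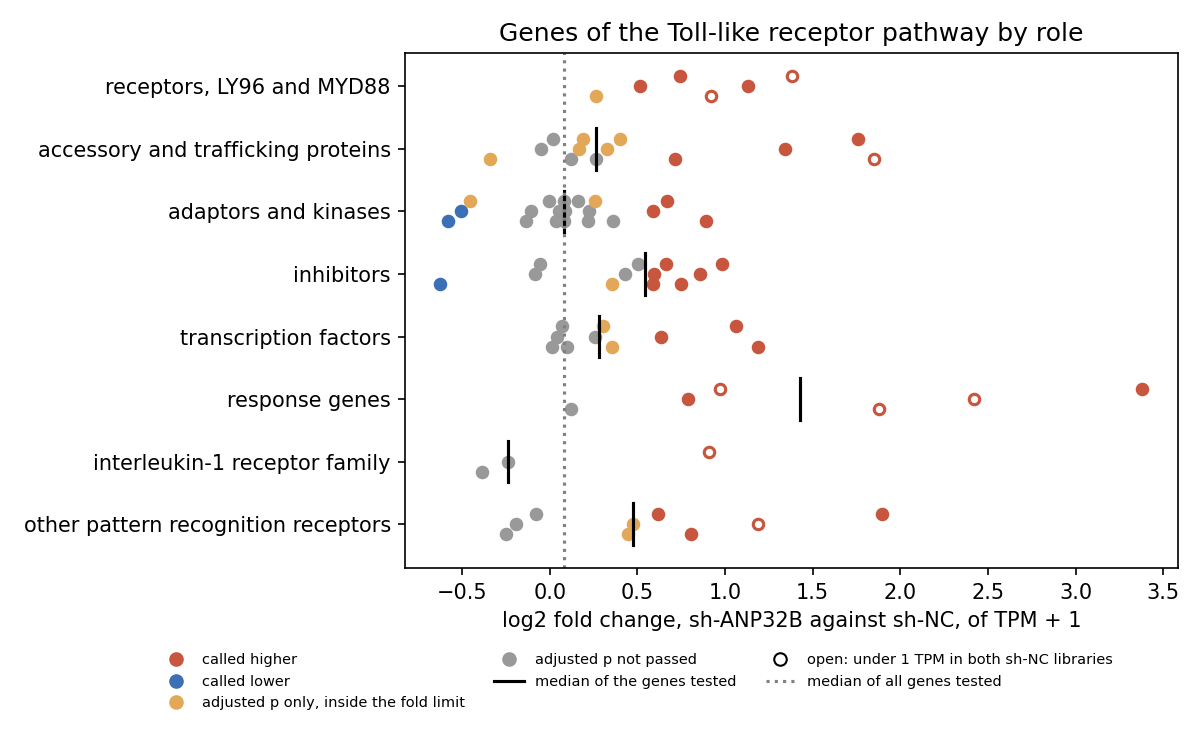
Log2FC of TPM + 1 for each tested gene of the lists, by role; colours give the call, open points mark genes under 1 TPM in both sh-NC libraries, black bars are list medians and the dotted line is the median of all genes tested (0.08). Adaptors and kinases centre on the median of all genes, and 3 of the 6 response genes tested are open points.

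The interleukin-1 receptor family also signals through MYD88. Of its 7 genes 3 were tested, and IL18RAP was called higher, with 0.802 and 0.718 TPM in sh-NC and 2.65 and 1.99 TPM in sh-ANP32B (log2FC 0.91, adjusted p = 0.0205). It entered the test through sh-ANP32B only, and its call was lost after quantile normalization (adjusted p = 0.0783), without sh-NC replicate 1 (adjusted p = 0.0645) and without sh-NC replicate 2 (adjusted p = 0.0709). IL1RAP and IL18R1 had log2FC values of -0.24 and -0.39 that did not pass the test, but after quantile normalization IL18R1 was called lower (log2FC -0.62, adjusted p = 0.0295). Of 12 pattern recognition receptors of other families, 9 were tested, 4 were called higher and none lower, with a median of 0.47. DHX58, an RNA sensor of the RIG-I family, had 3.03 and 4.67 TPM in sh-NC and 16.7 and 16.9 TPM in sh-ANP32B (log2FC 1.89, adjusted p = 9.00e-04). CLEC7A, the beta-glucan receptor dectin-1, was listed at 0 and 0.106 TPM against 1.34 and 1.46 TPM (log2FC 1.19, adjusted p = 0.0108). It entered the test through sh-ANP32B only, and without sh-NC replicate 1 its adjusted p was 0.0515 from limma. STING1, the adaptor of cytosolic DNA sensing, had a log2FC of 0.45 (adjusted p = 0.00247), inside the fold limit, and was called higher without sh-NC replicate 1 (log2FC 0.501, adjusted p = 0.00543). NOD1 had a log2FC of -0.25 that did not pass the test (adjusted p = 0.0516). Whether the Toll-like receptors differ from these lists was not tested.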

How the data were processed

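RNA-seq libraries of MV4-11 cells, 2 of sh-NC and 2 of sh-ANP32B, were grouped by the sample titles. Per the labels, reads were mapped to hg38 by HISAT2 (version 2.0.5), and the authors deposited expression as TPM. The quantifier, the annotation, the handling of strand and the filter of genes are not given in the sources used here. The lowest mean of a row is 0.500 TPM. Of the 18885 identifiers, 17290 matched GENCODE version 44.

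Differences were tested with limma (version 3.58.1 in R 4.3.3, moderated variances with an intensity trend) on log2(TPM + 1), over genes that reached 1 TPM in 2 or more libraries, with Benjamini-Hochberg adjustment over all genes tested. DESeq2, named in the study's methods, needs counts and was not used. The fit was tested on simulated data, in which 200 of 16399 genes were changed, all of them drawn from well expressed genes. All 200 were called, as were 7 unchanged genes. Recovery at low levels, such as those of TLR1, TLR6 and LY96, was not covered.

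The members, lists and limits were chosen with earlier results of these data known. Named genes were the members, the called genes at either end of each list, and the most abundant genes of each list. CD14 had no row, so no profile was compared with it, and genes shown as cell type markers or neighbours were named besides. The alternatives were a replicate block, other filters, pseudocount, scaling, variance prior and call limits, and each library left out in turn. A further list of cell type markers is not reported here.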

Additional observations from a re-analysis of the deposited data

How the results depend on the processing

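The sign of the change was fixed for TLR1, TLR5 and TLR6 by the choice of rows. The receptors, LY96 and MYD88 kept a positive log2 fold change in every alternative that tested them. The number of them called higher, 5 in the main comparison, was 3 with at least 1 TPM in every library, 3 after quantile normalization and 2 at a fold limit of 1. With 1 library left out it ranged from 2 to 4, partly because TLR1 and TLR6 fall below the filter without a sh-ANP32B library, and the lone library of a group is then assumed to vary like the others. The number of pathway genes called higher, 26, was 10 at a fold limit of 1 and ranged from 16 to 23 with 1 library left out. For those called lower, 3, it was 0 at a fold limit of 1 and 5 with no fold limit. Over all genes, 3024 higher and 1712 lower became 1136 and 273 at a fold limit of 1, and 3342 were lower with no fold limit. Higher genes made up 63.9% of the calls as deposited, 51.1% with median-of-ratios scaling and 49.8% after quantile normalization. Genes near 0 changed sign, with median-of-ratios scaling IRAK1 (log2FC -0.061), IRF3 (-0.026), IRF8 (-0.058) and UNC93B1 (-0.080), and with 1 library left out INPP5D (from -0.13 to 0.015), IRF3 (from -0.0100 to 0.15), IRF8 (from -0.19 to 0.27) and UNC93B1 (from -0.024 to 0.058). The cause of these shifts was not tested. Same-numbered libraries did not deviate together (correlation -0.0232), and with the replicate number as a block 5 of the members tested were called higher and none lower, with 25 and 3 pathway genes and 2853 and 1671 of all genes. TPM hold no depth, so the precision of values below 1 TPM is unknown.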
